A study of Mus musculus with 4 samples.

Results

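The response of C2C12 myotubes to clenbuterol was described from the library titled as clenbuterol treated and the library titled as its control, 1 RNA-seq library on each side. Genes were taken into the comparison where their level reached a TPM of 1 in either library, which held for 13788 of the 45777 genes in the deposited table. TPM is an abundance scaled for transcript length and library size, so that levels of different genes can be set side by side. C2C12 is a clonal mouse myoblast line that fuses into multinucleated myotubes in low serum, and the cultures were kept in DMEM with 2% horse serum. The series holds 4 libraries of such myotubes; the other 2 belong to an experiment on electrical pulse stimulation (EPS), which makes myotubes contract. Clenbuterol is a beta-adrenergic agonist, whereas the series is titled for adrenaline. The treatment field lists 30 ng/ml of clenbuterol for all 4 libraries, controls included, so the groups follow the titles; neither the vehicle nor the hours of exposure could be read from them. For the EPS experiment the titles and the names in the files conflict on which library was stimulated. These 2 libraries are therefore used only as an unordered pair, with a lower and a higher value for each gene, to show where further C2C12 myotube cultures lay.

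Beta-adrenergic receptors couple through the G protein Gs to adenylyl cyclase, which makes cyclic AMP. Cyclic AMP releases the catalytic subunits of protein kinase A, and these phosphorylate CREB and related factors, which bind the cyclic AMP response element (CRE) with the palindrome TGACGTCA or its shorter core TGACG in promoters. Genes read out in this way include transcription factors of the NR4A and FOS families and several brakes on the pathway itself, among them phosphodiesterases that degrade cyclic AMP and the kinase SIK1. In skeletal muscle, adrenergic stimulation is known for glycogen breakdown and, with long exposure to clenbuterol, for growth of fibres and a shift towards fast fibre types.

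With 1 library per side the comparison has no replicates, so no p-value, SD or SE is given and genes are described by size. Gene totals were close, 33148483 counts in the clenbuterol library and 33408083 in its control, and lay between 32640884 and 35597074 in the EPS pair. A gene was called higher or lower when the ratio of TPM + 1 and the ratio of CPM (counts scaled to library size, with TMM factors) both reached 2-fold and the higher library held at least 20 counts. By this rule 66 genes were higher with clenbuterol, 0.479% of those tested, and 20 were lower, 0.145%. With FPKM in place of TPM, both sides shrank to 43 higher and 6 lower genes. At 1.5-fold the rule in TPM and CPM gave 192 higher genes, 1.39%, and 124 lower, 0.899%. Fold values below are CPM ratios followed by an exact 95% binomial interval, which covers counting error only and not the difference between 2 cultures.

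The higher and lower sides were of different make. Among the 66 higher genes 58 had a gene name, 51 of these held at least 100 counts in the higher library, and 41 reached a TPM of 10 there. Among the 20 lower genes 11 had a name, 3 of these held at least 100 counts and 2 reached a TPM of 10. The remaining 8 higher and 9 lower genes were predicted or unnamed loci. Another gene on the same strand overlapped 8 of the higher and 10 of the lower genes, where reads of the 2 genes cannot be told apart by strand. Shares of predicted loci and of overlapping genes over all tested genes are not given here. Whether either side departs from the tested genes in these traits is therefore not shown. Ratios were spread more widely at low levels: with a TPM of 1 to 5 in the higher library, 95% of the 2951 genes lay between log2 ratios of -0.90 and 1.00, and with a TPM of 100 or more there, between -0.18 and 0.25 over 1816 genes. Of these 1816 genes 10 were called higher and 0 lower.

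**Figure D1:**
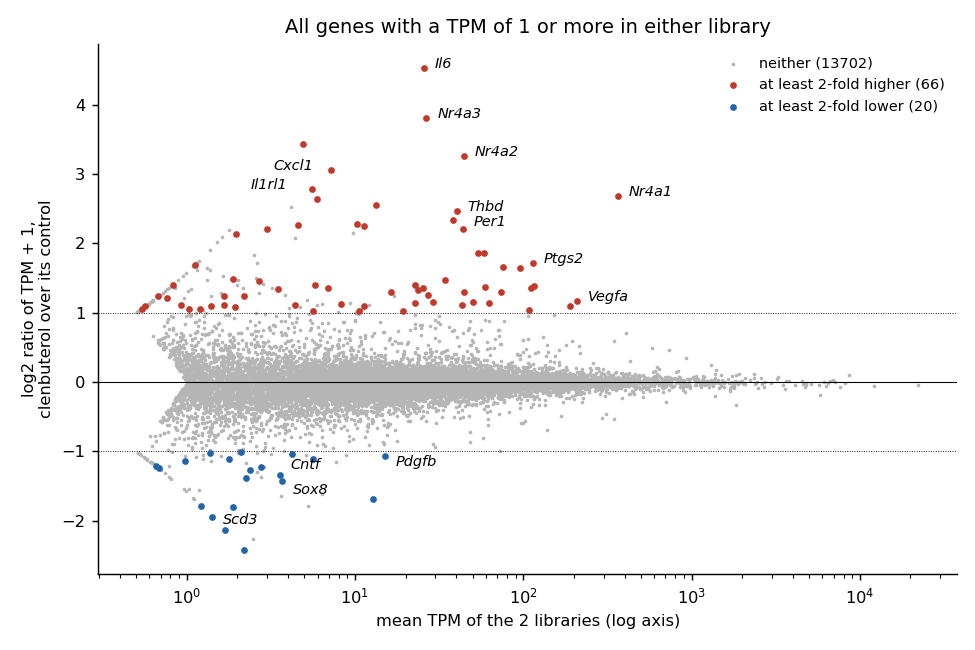
Each point is 1 of the 13788 genes with a TPM of 1 or more in either library; the x axis is the mean TPM of the clenbuterol library and its control on a log axis and the y axis the log2 ratio of TPM + 1. Red points mark the 66 genes at least 2-fold higher with clenbuterol and blue points the 20 at least 2-fold lower; dotted lines mark 2-fold, and Nr4a1 stands furthest right among the highest ratios.

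The 2 cultures were alike as myotubes. Myogenin (Myog), the differentiation factor, stood at TPM 969 with clenbuterol and 935 in the control, the fusion protein myomaker (Mymk) at 1207 and 1131, embryonic myosin (Myh3) at 813 and 779, and skeletal actin (Acta1) at 8891 and 8270. Of the markers of dividing cells Mki67 stood at TPM 29.1 and 31.9 and Top2a at 67.3 and 70.1, and the myoblast factor Myf5 stood at 4.19 and 4.86. The EPS pair was lower in Myog (600 and 673), Mymk (582 and 788) and Myh3 (427 and 657). It was higher in Mki67 (45.6 and 49.4), Top2a (98.0 and 106) and Myf5 (5.67 and 7.76). Acta1, at 5723 and 9090 there, spanned both libraries, and Id1 was lower there, at 19.8 and 36.6. In a bulk library fewer cells of a type and less RNA per cell cannot be told apart. Of the 6 listed markers of myoblasts Id3 and Pax7 differed most, both towards clenbuterol. Pax7, the satellite cell factor, stood at TPM 1.39 and 0.787, from 117 and 62 counts, with 0.571 and 1.09 in the EPS pair, and Id3, also a BMP target, is described with the repressors. Of 10 adipocyte markers 8 were at 0 in both libraries, and of 10 endothelial markers 6 were at 0 with a summed TPM of 0.833 and 0.692. Of 10 immune markers 6 were at 0, Ptprc (CD45) among them, with summed TPM of 12.6 and 13.8, nearly all from Cd14 and Cd68. The 10 tendon and fibroblast markers were not absent, with summed TPM of 3298 and 3127. Col3a1 stood at 1896 and 1764, Col1a1 at 642 and 573, Postn at 400 and 408 and Scx at 354 and 376. The 5 measured ones lay within 1.25-fold. Of 10 neuron and glia markers 1 was measured, Tubb3, at 114 and 113.

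Because the CRE is where this pathway meets the genome, promoters of 300 bases, from 250 before to 50 after the gene start (RefSeq, GRCm38.p6, the same assembly as mm10), were searched on both strands, and a gene was counted when any of its listed promoters matched. Of the tested genes 10059 had a promoter in the table, and 361 of these, 3.59%, held the full TGACGTCA. Among the 51 higher genes with a promoter 4 held it, 7.84%, and these 4 are shown with the full CRE and any further core in capitals. Areg (amphiregulin, a ligand of the EGF receptor) is taken from chr5:91139349-91139648 on the plus strand, Btg2 (an antiproliferative factor that recruits the deadenylation machinery) from chr1:134079106-134079405 on the minus strand, Dusp1 (a MAP kinase phosphatase) from chr17:26508423-26508722 on the minus strand and Slc25a25 (a calcium-regulated mitochondrial ATP-Mg carrier) from chr2:32424017-32424316 on the minus strand, each 5′ to 3′.

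Areg: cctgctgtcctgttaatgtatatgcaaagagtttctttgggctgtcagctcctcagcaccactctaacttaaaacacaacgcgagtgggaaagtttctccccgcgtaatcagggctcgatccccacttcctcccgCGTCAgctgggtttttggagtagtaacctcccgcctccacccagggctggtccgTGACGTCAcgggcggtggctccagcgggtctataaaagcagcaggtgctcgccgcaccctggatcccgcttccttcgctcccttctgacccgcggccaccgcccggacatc

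Btg2: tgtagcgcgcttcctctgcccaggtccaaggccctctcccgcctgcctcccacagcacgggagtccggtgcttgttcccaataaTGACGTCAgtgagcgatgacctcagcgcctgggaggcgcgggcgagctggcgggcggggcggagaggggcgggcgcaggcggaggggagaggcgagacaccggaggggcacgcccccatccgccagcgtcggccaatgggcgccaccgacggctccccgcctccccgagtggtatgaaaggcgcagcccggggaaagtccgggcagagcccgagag

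Dusp1: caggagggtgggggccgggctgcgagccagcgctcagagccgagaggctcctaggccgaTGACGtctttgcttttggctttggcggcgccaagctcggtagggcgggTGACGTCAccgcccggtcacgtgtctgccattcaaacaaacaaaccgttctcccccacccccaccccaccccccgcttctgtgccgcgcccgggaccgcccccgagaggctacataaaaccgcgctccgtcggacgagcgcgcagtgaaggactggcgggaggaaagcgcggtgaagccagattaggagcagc

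Slc25a25: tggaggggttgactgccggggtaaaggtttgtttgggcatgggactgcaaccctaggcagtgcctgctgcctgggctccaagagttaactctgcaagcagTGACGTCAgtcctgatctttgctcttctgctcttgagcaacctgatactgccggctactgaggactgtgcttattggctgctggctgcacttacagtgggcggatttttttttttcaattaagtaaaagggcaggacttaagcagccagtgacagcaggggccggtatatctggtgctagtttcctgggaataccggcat

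The full element began 61 bases before the start in Areg, 166 in Btg2, 143 in Dusp1 and 150 in Slc25a25. The other listed promoters of Slc25a25 held neither the full element nor a core, and which start was used was not tested. The core, TGACG or its complement CGTCA, is common: 35.4% of the tested genes with a promoter held one, and 25 of the 51 higher genes, 49.0%. A full element holds the core on both strands and counts here too. The 3 NR4A genes held no full element but 4 cores each, and Il6 held 1, which began 135 bases before its start; the promoters of this family and of Il6 are shown with the cores in capitals. Nr4a1 is taken from chr15:101266596-101266895 on the plus strand, Nr4a2 from chr2:57123954-57124253 on the minus strand, Nr4a3 from chr4:48045055-48045354 on the plus strand and Il6 from chr5:30012864-30013163 on the plus strand. The table's start of Nr4a1, Nr4a3 and Slc25a25 lies inside the span that the gene annotation gives.

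Nr4a1: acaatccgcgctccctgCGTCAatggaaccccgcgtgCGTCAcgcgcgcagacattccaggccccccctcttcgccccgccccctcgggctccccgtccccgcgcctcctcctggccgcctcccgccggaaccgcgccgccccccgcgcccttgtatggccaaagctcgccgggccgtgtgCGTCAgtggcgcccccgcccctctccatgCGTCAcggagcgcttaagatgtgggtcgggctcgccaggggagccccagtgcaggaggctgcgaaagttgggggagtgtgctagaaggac

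Nr4a2: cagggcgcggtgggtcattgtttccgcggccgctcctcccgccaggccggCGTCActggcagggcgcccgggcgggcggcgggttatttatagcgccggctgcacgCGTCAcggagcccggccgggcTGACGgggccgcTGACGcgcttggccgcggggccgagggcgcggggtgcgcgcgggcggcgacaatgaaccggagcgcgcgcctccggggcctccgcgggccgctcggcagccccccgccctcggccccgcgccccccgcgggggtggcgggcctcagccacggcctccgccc

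Nr4a3: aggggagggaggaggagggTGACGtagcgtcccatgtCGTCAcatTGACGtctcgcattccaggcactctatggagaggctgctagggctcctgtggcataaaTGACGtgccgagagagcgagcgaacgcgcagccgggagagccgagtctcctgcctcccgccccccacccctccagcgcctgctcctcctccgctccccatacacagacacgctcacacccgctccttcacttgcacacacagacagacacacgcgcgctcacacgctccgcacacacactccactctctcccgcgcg

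Il6: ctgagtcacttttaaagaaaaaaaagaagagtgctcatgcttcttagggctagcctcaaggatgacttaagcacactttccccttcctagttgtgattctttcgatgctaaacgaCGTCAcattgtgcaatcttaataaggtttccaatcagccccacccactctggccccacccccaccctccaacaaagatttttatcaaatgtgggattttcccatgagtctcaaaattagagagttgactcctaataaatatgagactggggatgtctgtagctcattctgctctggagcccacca

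The same letters were counted in the other classes of genes. Between 1.5- and 2-fold, 6 of 87 higher genes with a promoter held the full CRE (6.90%) and 1 of 78 lower genes (1.28%); the share was 3.54% among the 9050 genes within 1.25-fold. None of the 14 genes called lower that had a promoter held it. The core was found in 43.7% of genes 1.5- to 2-fold higher and in 26.9% of those 1.5- to 2-fold lower. The AP-1 letters TGANTCA, the site of FOS and JUN dimers, were in 11.8% of genes called higher, in 13.8% of those 1.5- to 2-fold higher and in 6.34% of all tested genes with a promoter. A gene with several listed starts has more chances to match, so the shares were repeated over genes with 1 promoter. There 3 of 40 higher genes (7.5%) and 3.43% of all held the full CRE, and 42.5% against 32.998% held a core. Of 70 such genes 1.5- to 2-fold higher, 3 held the full CRE (4.29%, close to the share of all) and 40% a core. The AP-1 letters were in 7.5% of these genes called higher, in 12.9% of those 1.5- to 2-fold higher and in 4.62% of all. A match is a description of letters in the window and not a measurement of binding.

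From the G protein to CREB, nearly all components had similar levels in both libraries. Gnas, which encodes the Gs alpha subunit, stood at TPM 1106 and 1136. Of 6 measured receptor kinases and arrestins, which desensitise the receptor, 5 had a ratio below 1, all within 1.25-fold. Of the 4 measured adenylyl cyclases Adcy7 was the most abundant, at TPM 169 and 177, and Adcy6 had the highest ratio, TPM 30.7 and 26.9.

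Among 9 measured phosphodiesterases only Pde4b was called, at TPM 23.6 with clenbuterol, 3.19 in the control and 4.72 and 8.85 in the EPS pair. It was 7.45-fold higher (6.41 to 8.70), whereas its relative Pde4d, also a cyclic AMP-specific enzyme, was 1.51-fold higher in CPM (1.39 to 1.65), at TPM 9.41 against 6.40, with both EPS libraries at 9.18 to 13.9. Of 10 measured genes for protein kinase A, Epac and their inhibitors, 0 were called; Prkaca, the main catalytic subunit, stood at TPM 192 and 191. Rapgef2, an exchange factor for Rap, had a TPM of 17.1 and 7.33 but 1749 and 1578 counts, a CPM ratio of 1.14, so the TPM difference did not come with a like difference in reads. All 10 measured A-kinase anchor genes, which place protein kinase A in the cell, lay within 1.25-fold.

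Of 17 genes for CREB factors, their coactivators and the salt-inducible kinases, 1 was called. Sik1, which phosphorylates and so keeps CRTC coactivators out of the nucleus, stood at TPM 168 with clenbuterol, 63.3 in the control and 44.1 and 56.7 in the EPS pair. It was 2.69-fold higher (2.59 to 2.78), and the clenbuterol library stood above all others. Crem, which has a cyclic AMP-inducible repressor form that gene counts do not separate, stood at 13.4 against 6.73 and was 1.93-fold higher (1.65 to 2.26). Creb1 itself stood at TPM 8.53 and 10.3, and Creb5 was the lowest of the list at 5.14 and 7.85, with 3.23 and 5.15 in the EPS pair. The higher members of this pathway were thus the enzyme that degrades cyclic AMP, the inhibitory kinase and the CREM gene, as the plot of signalling and response genes shows.

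**Figure D2:**
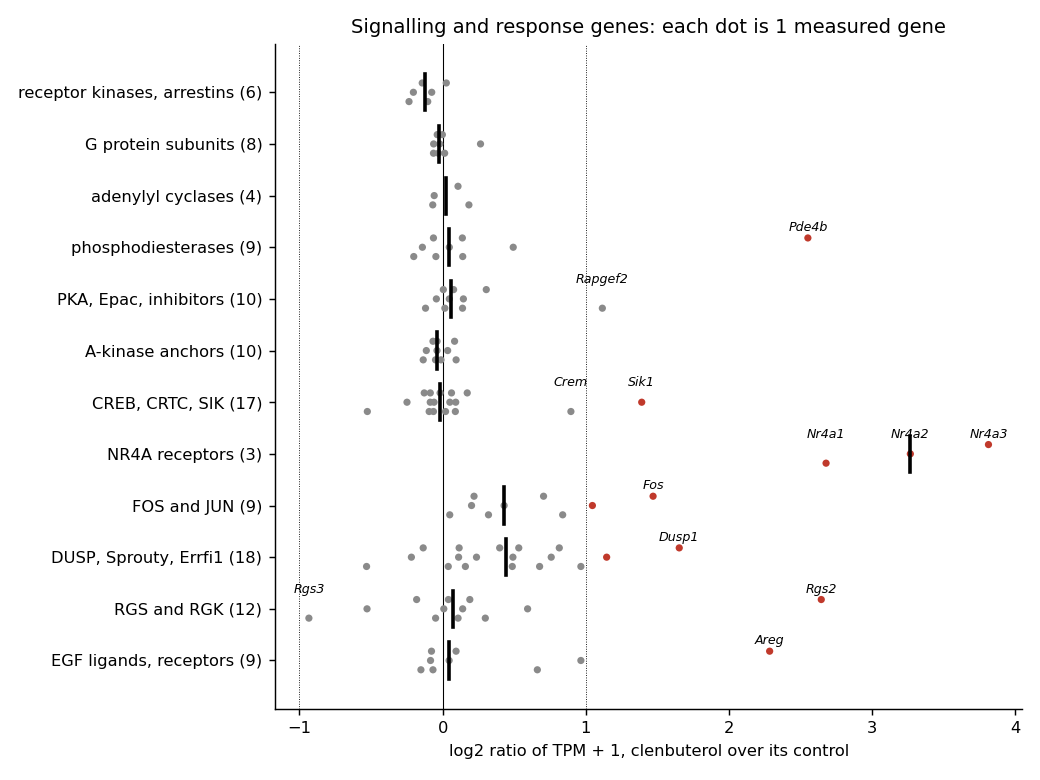
Each dot is 1 measured gene of a list, with the number of genes in brackets; the x axis is the log2 ratio of TPM + 1, clenbuterol over its control, and the short vertical bar is the median of the list. Red dots are genes called at least 2-fold higher; receptor kinases, G proteins, cyclases, kinases and anchors gather near 0, and Pde4b, Sik1, the NR4A genes and Rgs2 stand to the right (Rapgef2 passes 2-fold in TPM but not in CPM).

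Cyclic AMP response genes formed the group with the most called members. Of 31 measured genes, 15 were called higher and 0 lower, and at 1.5-fold 22 were higher; the median log2 ratio was 0.90, beside -0.01 over all tested genes, and 29 of 31 were above 0. The list was chosen with earlier results of these data known, so its direction is no independent evidence. The 3 NR4A orphan nuclear receptors, immediate early transcription factors, were all called. Nr4a1 stood at TPM 629 with clenbuterol, 97.4 in the control and 12.8 and 19.7 in the EPS pair; Nr4a3 stood at 50.5, 2.66 and 0.474 and 0.546. For both, the clenbuterol library was the highest of the 4 and its control stood above both EPS libraries. Nr4a2 stood at 81.1, 7.53 and 4.90 and 6.83, and it overlaps a predicted gene on the same strand, LOC105244150, which was also called higher. The 2 members of the list with a ratio below 1 were Arc and Egr1, at TPM 5.51 against 7.67 and 130 against 141.

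Outside the 12 genes with the highest ratios, the called genes given with full values here were picked after their values were seen, for their level and role. Ptgs2, the inducible cyclooxygenase of prostaglandin synthesis, stood at TPM 176 with clenbuterol, 52.5 in the control and 35.9 and 51.8 in the EPS pair, and was 3.39-fold higher (3.26 to 3.52). Vdr, the vitamin D receptor, stood at 84.6, 22.5 and 26.8 and 35.1, 3.82-fold higher (3.60 to 4.05). Slc25a25, with the full CRE shown above, stood at 38.6, 15.5 and 13.4 and 15.7, 2.47-fold higher (2.27 to 2.70). In each of the 3 the clenbuterol library was above all others and the control lay near or within the range of the EPS pair. Btg2 stood at 92.2, 24.7 and 13.4 and 19.3, 3.78-fold higher (3.54 to 4.05). Sgk1, a kinase that regulates ion channels and is induced by serum and glucocorticoids, stood at 258, 120 and 92.8 and 105, 2.17-fold higher (2.09 to 2.25). Tiparp, a mono-ADP-ribosyltransferase, stood at 106, 42.4 and 36.9 and 46.3, 2.54-fold higher (2.42 to 2.66).

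**Figure D3:**
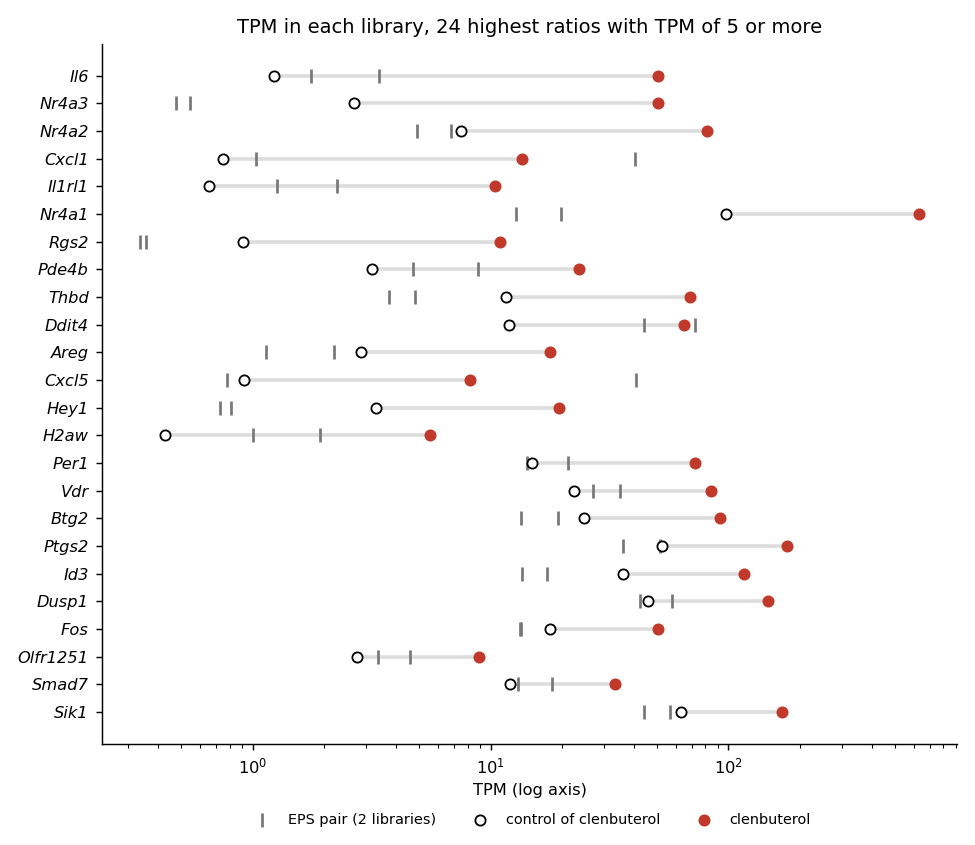
TPM on a log axis in each library for the 24 called genes with the highest ratios and a TPM of 5 or more; filled red circles are the clenbuterol library, open circles its control and grey ticks the 2 libraries of the EPS pair. Il6 stands at 50.4 against 1.22, 1.76 and 3.39; for Cxcl1, Cxcl5 and Ddit4 1 grey tick lies above the red circle.

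FOS and JUN proteins form the AP-1 factor. All 9 measured genes of their list, which also holds Atf3 and Jdp2, had a ratio above 1. The median log2 was 0.43, and 2 were called. Fos stood at TPM 50.8 with clenbuterol, 17.7 in the control and 13.3 and 13.4 in the EPS pair, 2.91-fold higher (2.64 to 3.21). Fosl2 stood at 146, 70.2 and 52.4 and 93.7, 2.11-fold higher (2.05 to 2.18), so here 1 EPS library lay above the control. Fosb and Junb passed 1.5-fold, at TPM 29.5 against 16.1 and 509 against 312. Jun (114 and 84.5) and Jund (178 and 172) stayed under 1.5-fold.

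Other immediate early genes were mixed. Of 43 measured, 6 were called higher and 0 lower (Per1, Btg2, Ier3, Csrnp1, Plk3 and Sgk1), and the median log2 ratio was 0.08. Ier3, a stress-induced survival factor, stood at TPM 161, 62.4 and 76.8 and 96.9, so its control was the lowest of the 4 libraries. The serum response factor Srf stood at 34.7 with clenbuterol and 47.3 in the control, and Gadd45b, a stress sensor upstream of p38 kinases, was 1.599-fold lower (1.51 to 1.69), at 106 against 172 and 103 and 118 in the EPS pair. The 12 measured Krüppel-like factors parted as well: Klf4 stood at 140 against 72.1 and Klf2 at 63.5 against 38.7, and both passed 1.5-fold upwards. Klf10, a TGF-beta-induced member, stood at 79.7 against 120, 1.49-fold lower (1.43 to 1.55). Klf12 had the lowest TPM ratio of the list, at 0.420 against 1.73, but 178 and 225 counts, a CPM ratio of 0.814.

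Genes that feed back on MAP kinase signalling were higher more often than lower. Of 18 measured MAP kinase phosphatase and Sprouty-type genes, 2 were called, 6 passed 1.5-fold upwards and 0 downwards, with a median log2 ratio of 0.44. Dusp1, which dephosphorylates p38 and JNK, stood at TPM 147 with clenbuterol, 45.9 in the control and 42.3 and 57.8 in the EPS pair, 3.24-fold higher (3.04 to 3.45). Dusp10, with the same substrates, stood at 86.8, 38.7 and 28.9 and 35.9, 2.28-fold higher (2.14 to 2.42). Errfi1, an inhibitor of the EGF receptor, stood just under the 2-fold line at 202, 103 and 26.7 and 43.4, 1.99-fold (1.92 to 2.06). For these genes the clenbuterol library was the highest of the 4. Dusp7 was the lowest of the list, at 7.61 against 11.4. Of 12 measured regulators of G protein signalling and RGK-family GTPases, 1 was called, 2 passed 1.5-fold upwards and 1 downwards, 8 lay within 1.25-fold and the median log2 ratio was 0.07. Rgs2, which speeds the turning off of G proteins, stood at 10.97, 0.912 and 0.337 and 0.357, 12.2-fold higher (8.80 to 17.3), while Rgs3 stood at 20.3 against 39.7, 1.80-fold lower (1.64 to 1.97), with 29.9 and 36.4 in the EPS pair.

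Interleukin-6 was the gene with the highest ratio, 40.2-fold (26.1 to 65.3, from 820 and 21 counts), and no other member of its family passed 2-fold upwards. Of 12 measured ligands and receptors of that family, 1 was called higher (Il6) and 1 lower (Cntf), and the median log2 ratio was 0.02. Lif, which acts through the same receptor subunit gp130, stood at TPM 46.1 against 26.1 and was 1.72-fold higher (1.62 to 1.83). The subunit itself, Il6st, stood at 104 and 103, and Il6ra at 2.02 and 2.51. Cntf, a neurotrophic member, stood at 1.60 with clenbuterol, 5.57 in the control and 2.89 and 3.21 in the EPS pair, 3.40-fold lower (2.21 to 5.38, from 28 and 98 counts). The control was the highest of the 4 libraries and clenbuterol the lowest, and Cntf overlaps a predicted gene on the same strand, Gm44505, which was called higher.

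Among 12 measured chemokines 2 were called, Cxcl1 and Cxcl5, neutrophil attractants. Cxcl1 stood at TPM 13.6 with clenbuterol, 0.751 in the control and 1.04 and 40.3 in the EPS pair, and Cxcl5 at 8.21, 0.919 and 0.780 and 40.7. Both were thus highest in 1 of the EPS libraries, and the same held for the monocyte attractant Ccl7, at 14.2, 6.67 and 5.29 and 27.5. Ccl2, another monocyte attractant, stood at 8.11 and 7.82, with 2.72 and 62.1 in the EPS pair. Il1rl1, the receptor of interleukin-33, stood at 10.5, 0.659 and 1.26 and 2.26, 10.9-fold higher (8.15 to 14.8), while its ligand Il33 stood at 10.02 and 9.93. Of 16 genes in the list of NF-kB subunits and inhibitors, 0 were called, and Nfkbiz (32.1 against 17.7) and Bcl3 (11.5 against 6.42) passed 1.5-fold upwards. Among 12 SOCS and STAT genes, Socs2 stood at 59.99 against 39.05 and Socs5 at 23.9 against 36.6, and 0 were called.

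Secreted growth factors and the plasminogen system held single called genes among many that were not. Areg stood at TPM 17.7 with clenbuterol, 2.84 in the control and 1.14 and 2.19 in the EPS pair, 6.24-fold higher (4.62 to 8.56). Of the 9 measured EGF-type ligands and receptors, Ereg also passed 1.5-fold at 15.7 against 9.53, while Hbegf (55.0 and 57.6) and the receptor Egfr (16.4 and 17.4) stood near 1. Vegfa, the main angiogenic factor, stood at 288, 127 and 229 and 238, 2.31-fold higher (2.24 to 2.38); its control was the lowest of the 4 libraries. Of 18 measured angiogenic factors it was the only one called; Edn1 (endothelin-1) stood at 5.33 against 9.43 and 15.7 and 23.8 in the EPS pair. Fgf7, a ligand for epithelial receptors, stood low, at TPM 3.47 with clenbuterol, 0.891 in the control and 0.679 and 2.99 in the EPS pair. It was 3.91-fold higher (2.68 to 5.85, from 133 and 35 counts), and 1 EPS library came near the clenbuterol level. Pdgfb, a mitogen for mesenchymal cells, was 2.21-fold lower (1.97 to 2.48), at TPM 9.38, 20.6 and 10.7 and 16.2. Of 13 measured genes of the thrombomodulin and plasminogen list 2 were called: Thbd, an anticoagulant receptor of thrombin, at 68.8, 11.6 and 3.73 and 4.82, and Plaur, the urokinase receptor, at 37.2, 13.8 and 13.8 and 17.1. Pthlh, the parathyroid hormone-related peptide, stood at 5.43, 1.53 and 1.40 in both EPS libraries, 3.52-fold higher (2.37 to 5.36).

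In growth control, Irs2, which couples the insulin and IGF-1 receptors to PI3 kinase, stood at TPM 23.7 with clenbuterol, 8.99 in the control and 8.14 and 11.2 in the EPS pair, 2.67-fold higher (2.47 to 2.89). Irs1 stood at 18.1 and 22.9, and Irs2 was the only one of 24 measured insulin and IGF pathway genes that was called. Ddit4, a brake on mTORC1, was 5.50-fold higher (4.85 to 6.25), but it stood at 64.8, 11.96 and 44.2 and 72.6. The control was the library apart, and Ddit4 was the only named higher gene for which this held. The sestrin Sesn2 stood at 11.7 and 11.4, and 12 of 13 mTORC1 brakes lay within 1.25-fold.

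Of 21 measured repressors and feedback genes of TGF-beta, BMP and Notch signalling, 3 were called higher. Hey1, a Notch and BMP target, stood at TPM 19.4 with clenbuterol, 3.29 in the control and 0.727 and 0.807 in the EPS pair. Id3, which holds back myogenic factors, stood at 116, 35.9 and 13.6 and 17.3. Smad7, the inhibitory SMAD, stood at 33.3, 12.02 and 13.1 and 18.1. In Hey1 and Id3 the control stood above the EPS pair and clenbuterol above the control, while for Smad7 the control was the lowest of the 4. Id1 stood at 57.7 and 56.7 and Hes1 at 104 and 78.3. Sox9, the chondrogenic factor, stood at 85.8, 32.6 and 24.9 and 27.6, 2.67-fold higher (2.53 to 2.81), and its relative Sox8 at 1.53, 5.82 and 2.36 and 5.25, 3.74-fold lower (2.84 to 4.98).

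Of 23 clock, C/EBP and PAR bZIP genes, Per1 and Cebpd were called. Per1, a clock repressor with a cyclic AMP-responsive promoter, stood at TPM 72.5, 14.97 and 14.2 and 21.1, whereas Per2 stood at 7.84 and 6.68 and Nr1d1 at 21.5 and 21.98. Cebpd stood at 59.2, 26.8 and 16.3 and 20.7, 2.24-fold higher (2.07 to 2.43). Cebpb (49.2 against 28.8) and Nfil3 (89.9 against 52.9) passed 1.5-fold upwards. Bhlhe40 stood at 418 and 277 and passed 1.5-fold too.

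Ratios of sarcomere genes, the contractile machinery of the myotube, were close to 1. All 18 fast fibre, 15 slow fibre and 24 embryonic and shared sarcomere genes lay within 1.25-fold, with median log2 ratios of -0.05, 0.02 and 0.01. Of 24 measured atrophy and autophagy genes 22 lay within 1.25-fold; the ubiquitin ligase genes Trim63 (MuRF1) and Fbxo32 (atrogin-1) stood at TPM 46.6 and 49.0 and at 27.5 and 24.3. Of 14 genes of the acetylcholine receptor and its junction Chrne, the adult subunit, was the lowest at 5.54 against 8.70. Of 30 measured calcium handling and channel genes Kcnj2, an inward rectifier, had a TPM of 7.04 against 4.38 and 8.29 and 8.97 in the EPS pair. The plot of muscle and metabolic lists shows how closely these genes gather around 0.

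Metabolic lists held few larger ratios. Ppargc1a, the PGC-1 alpha coactivator of mitochondrial biogenesis, stood at TPM 1.69 with clenbuterol, 0.633 in the control and 0.256 and 0.291 in the EPS pair, with 156 and 85 counts, 1.89-fold higher in CPM (1.44 to 2.49). It was the only one of 17 PGC-1 and mitochondrial biogenesis genes past 1.5-fold. Of 35 genes of glucose use Hk2, hexokinase 2, passed 1.5-fold at 83.0 against 53.6, within the 50.2 and 95.50 of the EPS pair, and 32 lay within 1.25-fold. Pygm, the muscle glycogen phosphorylase, stood at 119 and 100. Of 39 fatty acid and sterol genes Scd4 was called higher (77 and 15 counts) and Scd3 lower (0 and 144 counts, at least 37.4-fold by the counting interval). These are related desaturase genes 89.3 kb apart on chromosome 19, and their abundant relatives Scd1 and Scd2 stood at 663 and 626 and at 1082 and 1040.2. How the authors' counting treated reads shared between related genes is unknown here, and its part in these values was not tested.

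**Figure D4:**
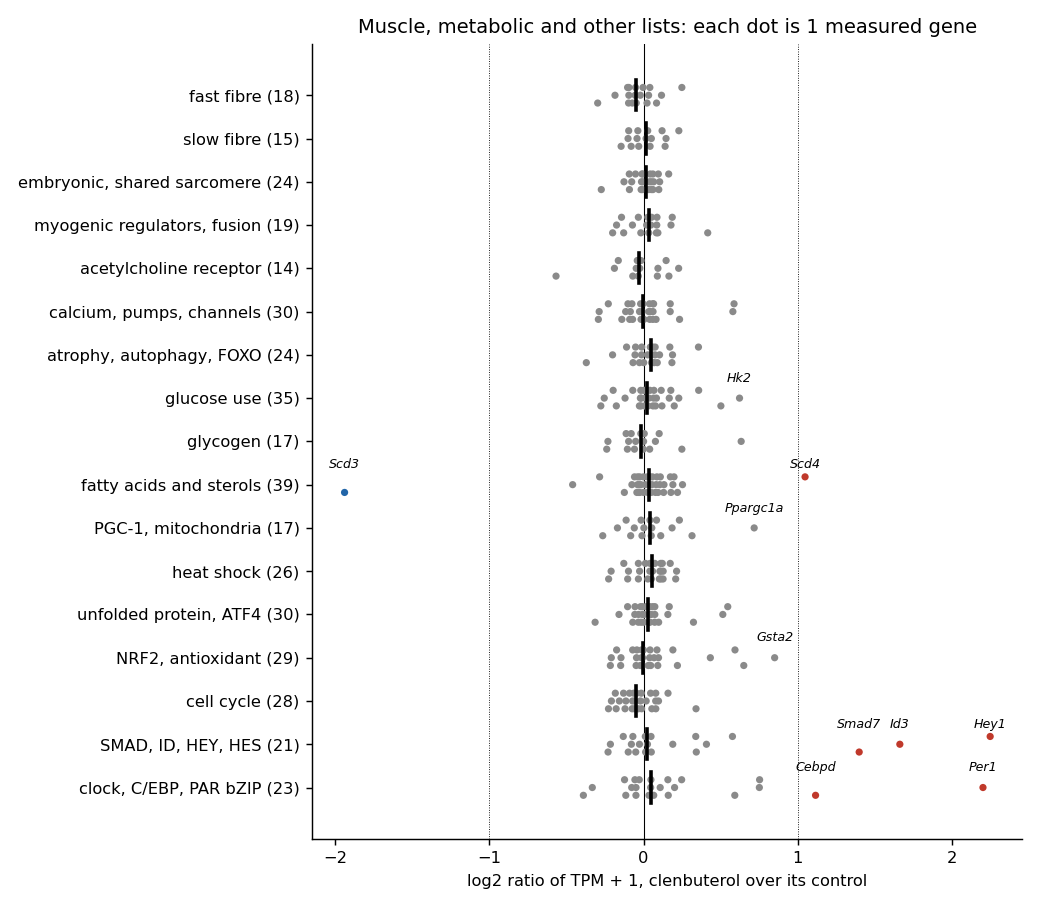
Each dot is 1 measured gene of a muscle, metabolic, stress or regulatory list; the x axis is the log2 ratio of TPM + 1, clenbuterol over its control, and the short bar the median of the list. The sarcomere lists lie within 1.25-fold, while Scd3 and Scd4, Smad7, Id3, Hey1, Cebpd and Per1 are the called genes of the lists drawn (blue lower, red higher); the p53 and hypoxia lists are not drawn.

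Stress and growth lists were close to 0 as well. All 26 heat shock genes lay within 1.25-fold, as did 27 of 28 cell cycle genes and 27 of 30 genes of the unfolded protein response. Of 29 antioxidant genes 3 passed 1.5-fold upwards, Gsta2, Osgin1 (TPM 161 against 102) and Srxn1 (38.3 against 25.1). Of 33 measured CCN, matrix and YAP target genes Has1, a hyaluronan synthase, stood at 42.3, 21.3 and 7.64 and 9.84, 2.51-fold higher in CPM (2.29 to 2.75) but just under 2-fold in TPM + 1. Ccn1 stood at 850 and 613, Ccn2 at 1085 and 1081. The p53 and hypoxia lists held 2 called genes each (Btg2 and Plk3; Vegfa and Ddit4), and Cdkn1a, the main p53 target, stood at 1747 and 1818.

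Of the 58 named higher genes 33 belonged to one of the lists, some to several. Among the others were receptors, ligands and enzymes with little in common. Hs3st1, a heparan sulfate sulfotransferase, stood at TPM 10.4, 3.41 and 4.44 and 4.63. Sema4c, a semaphorin, stood at 70.3, 30.9 and 29.3 and 35.03, 2.37-fold higher (2.25 to 2.502), and Sema4f at 14.4, 6.62 and 3.94 and 7.04. Tcim, a small regulator of transcription, stood at 40.3, 17.6 and 9.71 and 10.8. The Y1 receptor of neuropeptide Y, Npy1r, stood at 2.98, 0.886 and 0.665 and 0.879, and the neurofilament gene Nefl at 2.74, 0.583 and 0.492 and 1.38. The remaining called genes that were outside the lists and reached a TPM of 10 were Ankrd33b, the forkhead factor Foxc2 and Cbarp, a regulator of calcium channels. They stood at 31.9, 11.7 and 15.9 with clenbuterol against 13.9, 4.84 and 6.90 in the control, with folds of 2.46, 2.46 and 2.30. The deubiquitinase gene Uchl1 was 2.66-fold higher (1.84 to 3.91). H2aw, Lce1f, Nrp, Plac8 and H2-Q6 rested on 28 to 41 counts in the clenbuterol library, and H2aw, Nrp and Atrip overlap another gene on the same strand. Dmbt1, a scavenger receptor of epithelia, had 138 counts against 6 and was listed at 0 in both EPS libraries. Abi3, an adaptor of the WAVE complex, stood at 3.83, 0.0935 and 0.0442 and 4.70, so 1 EPS library matched the clenbuterol library. Among genes between 1.5- and 2-fold by the rule, and picked here after their values were seen, were 2 receptors, Bdkrb2 of bradykinin (11.2 against 5.67) and Adora2a of adenosine, itself coupled to Gs (48 and 10 counts), and the transcription factors Snai1 (62.7 against 33.7) and Irx3 (99.47 against 53.7).

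The lower side rested on few reads. Only Pdgfb, Sox8 and Scd3 of its 11 named genes held 100 counts or more in the control. Tubg2, a gamma tubulin, had 0 counts against 36, at least 9.0-fold by the counting interval, beside its near-identical copy Tubg1 with 1371 and 1330 counts. Htd2 had 0 against 48 counts, but it overlaps Rpp14 on the same strand, and 1 EPS library was listed at 0 as well. Egfl7, an endothelial-type secreted factor that hosts a microRNA, had 16 against 48 counts, 2.91-fold lower (1.63 to 5.50). Carmn, the long noncoding RNA that hosts Mir143 and Mir145a, had 20 against 75 counts and a TPM of 0.988, 3.77 and 4.29 and 4.54, so the clenbuterol library was the one apart. Smim27, Mfsd4b4 and Mir6236 held 30 to 49 counts in the control, and a microRNA locus in a poly(A) library need not report the mature microRNA. Between 1.5- and 2-fold lower, and named after their values were seen, were Htr1b, a serotonin receptor coupled to Gi, at TPM 5.58 against 9.36, the chemokine receptor Cxcr4 at 12.4 against 19.2, Lfng, a modifier of Notch, at 11.5 against 18.2, and the forkhead factor Foxs1 at 12.5 against 23.2. In Htr1b, Cxcr4, Lfng and Foxs1 the control was the highest of the 4 libraries and the clenbuterol library lay inside the EPS pair or close above it. Of the 74 named genes in this range, 55 were below both EPS libraries, beside 44.1% of all tested genes, and choosing genes on a low clenbuterol value favours this.

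The EPS pair shows which library stood apart for each called gene. Among the 58 named higher genes the clenbuterol library lay at least 2-fold from all 3 others in 37, the control did so in 1 (Ddit4), and neither did in 20. These genes were chosen on a 2-fold ratio between the same libraries, which favours a library standing apart. A share over all tested genes was not counted for this. The clenbuterol library was above both EPS libraries in 53 and between them in 5, beside 33.1% above over all tested genes; the choice of genes on a high value in that library favours this. The control, lower than clenbuterol by the rule, was nevertheless above both EPS libraries in 25 of the 58, below both in 17 and between them in 16, beside 34.9%, 41.1% and 23.9% of all tested genes. Nr4a1, Thbd, Hey1 and Id3 were among those whose control stood above the pair, while Vegfa, Ier3, Ddit4 and Smad7 were among those whose control stood below it, as the plot against the EPS pair shows. Among the 108 named genes 1.5- to 2-fold higher the clenbuterol library was above the pair in 85, between in 16 and below in 7. The EPS pair also stood lower in Myog and Mymk and higher in Mki67 and Top2a than the clenbuterol library and its control. What differed between the experiments besides their treatments could not be read from the labels, and its part in these values was not tested.

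**Figure D5:**
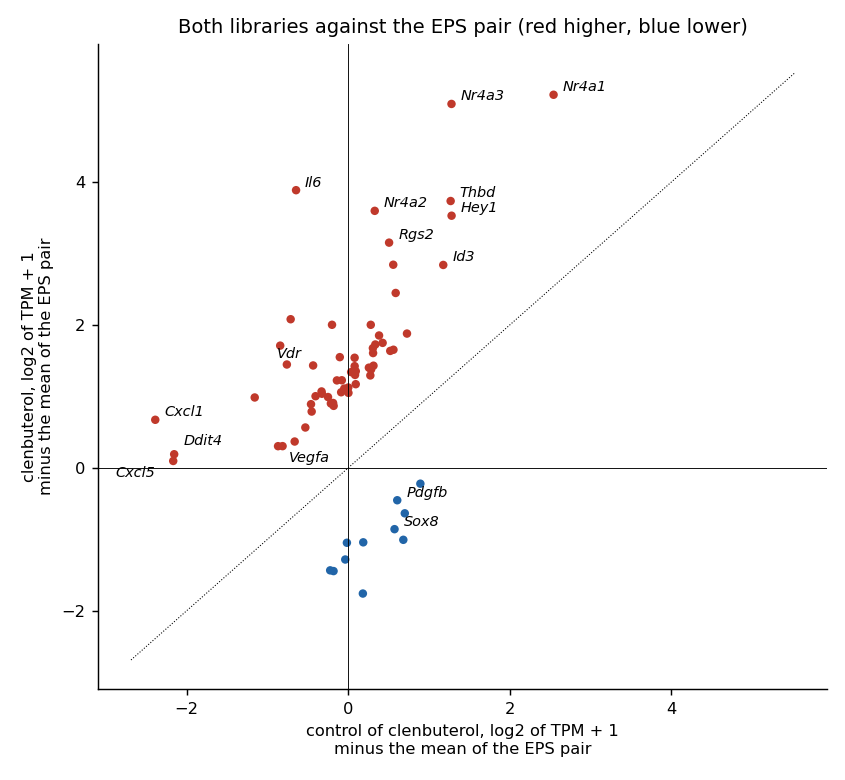
Each point is 1 named gene called higher (red) or lower (blue); the x axis is the control of clenbuterol and the y axis the clenbuterol library, each as log2 of TPM + 1 minus the mean of the EPS pair on that scale, and the dotted diagonal marks equal levels in both. Nr4a1 and Nr4a3 lie far above 0 on both axes, while Cxcl1, Cxcl5 and Ddit4 lie left of 0, with the control below the mean of the pair.

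In absolute terms the largest gain was that of Acta1, from TPM 8270 to 8891, a ratio of 1.09 in CPM, followed by Nr4a1, from 97.4 to 629. Ccn1, Tubb2a, Junb, Rpl18, Hsp90ab1, ND1 and Hspb1 were also among the 10 largest gains. Rpl18 stood at TPM 676 against 481 but at 7556 against 7247 counts, a CPM ratio of 1.07. The largest losses were in the mitochondrial ATP8 and COX1, the fast myosin light chain Mylpf and beta-actin. Actb stood at TPM 1626 against 2050, a CPM ratio of 0.804 (0.794 to 0.814), and at 2196 and 2373 in the EPS pair; Actg1, its close copy, stood at 1623 and 1774. Nr4a1 was the only gene called higher among the 20 genes with the largest TPM gains or losses.

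Some called genes were neighbours, and a part of the pairs within 500 kb is given here. How many close pairs other genes would form was not counted. Cxcl5, Cxcl1 and Areg lie in that order on chromosome 5 (mm10), with gaps of 129.6 and 246.5 kb, and all 3 were higher. The olfactory receptor genes Olfr1250 and Olfr1251, 9.49 kb apart on chromosome 2, had 60 against 14 and 123 against 39 counts. Pthlh and the predicted gene Gm15767 lie 8.31 kb apart on chromosome 6, both on the minus strand, and both were higher. Other neighbours went opposite ways: Scd3 was lower and Scd4 higher, and Cntf was lower while the predicted gene Gm44505 that overlaps it was higher.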

How the data were processed

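Poly(A) RNA of 4 C2C12 myotube cultures was extracted with ISOGEN and sequenced from TruSeq stranded mRNA libraries, per the labels' protocols. The submitters' processing notes name HISAT2 and mm10 without a version. The program behind the counts, the gene annotation and whether counting used strand are unknown here. Estimated counts, FPKM and TPM per gene were deposited by the authors in a joint table, per the file headers. The authors also deposited a table per sample with read coverage, FPKM and TPM per gene, which entered no ratio. The expected counts were whole numbers; it is unclear whether mates or fragments were counted. Gene symbols that had turned into dates (26) were restored from gene IDs.

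Samples were grouped by title, 1 library per group, so no test was made; totals were 32640884 to 35597074 counts. Ratios used log2 of TPM + 1, a filter of TPM 1 in either library, and CPM with TMM factors from edgeR 4.0.16 (R 4.3.3), with size factors of DESeq2 1.42.0 as an alternative. A gene was called at 2-fold in both units with 20 counts in the higher library. Exact (Clopper-Pearson) 95% intervals came from scipy 1.17.1 under Python 3.11.15. The call rule was tested on simulated counts with counting error only and with changes set in well-counted genes. That test covers neither differences between cultures nor genes whose TPM and counts disagree. The members, the 54 gene lists and the rules were chosen with earlier results of these data known. Any called gene could be named; full values were set for the 12 highest and 8 lowest, the 10 largest TPM gains and losses, up to 3 highest and 2 lowest members of each list and the genes of the pathway to CREB; 2 of these genes are not reported here. Called or 1.5-fold genes given beyond this were picked after their values were seen. Predicted loci were counted and not described. Promoters came from RefSeq (GRCm38.p6).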

Additional observations from a re-analysis of the deposited data

How the results depend on the processing

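With 1 library per group no spread between cultures is known, no library could be left out, and every value describes 2 cultures. No paired analysis was possible because each group holds 1 library. The 66 higher and 20 lower genes were found again with library totals, with DESeq2 size factors and without the TPM filter. Higher genes numbered 138 by TPM alone, 129 by CPM alone, 43 with FPKM, 109 and 38 with pseudocounts of 0.1 and 5, 132 without a count minimum, 192 at 1.5-fold and 23 at 3-fold. Lower genes numbered 71 by TPM alone, 74 by CPM alone, 6 with FPKM, 65 and 1 with pseudocounts of 0.1 and 5, 65 without a count minimum, 6 at a TPM of 5, 124 at 1.5-fold and 6 at 3-fold; the lower side thus depended on the pseudocount and the count minimum more than the higher side, where 38 of the 66 were called even with a pseudocount of 5. The cause of each was not tested beyond how the rule is built. List medians were counted as moved when they differed by more than 0.1 (log2), which held for 21 recomputed medians and not for 297. That of the cyclic AMP response genes was 1.14 and 0.71 with pseudocounts of 0.1 and 5, 0.78 with FPKM, 0.75 without the TPM filter and 1.01 at a TPM of 5. That of the NR4A genes lay between 2.78 and 3.46. Without the TPM filter the FOS and JUN median was 0.27, and those of the chemokines and neurotrophins were 0; with a pseudocount of 5 that of the MAP kinase phosphatases was 0.28. Of the log2 ratios of called genes 63 recomputed values moved by more than their counting interval and 281 did not; none changed sign.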
